A study of Mus musculus with 21 samples.

Results

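The genes described here belong to families of drug-metabolising enzymes. These are cytochrome P450 enzymes of families 1 to 4 (Cyp genes) and the conjugating enzymes. The latter are UDP-glucuronosyltransferases (Ugt), sulfotransferases (Sult) and glutathione S-transferases (Gst). The genes were defined by gene symbol, from probe sets annotated with a single symbol, and the probe set with the highest mean stood for each gene. Cyp3a13 was left out by the rule. The set held 98 genes of 18193 on the NMuMG arrays, of which 85 were also among the 12393 genes on the NM18 arrays. Of the 98 there were 55 Cyp genes (3, 35, 4 and 13 in families 1 to 4), 19 Gst, 13 Sult and 11 Ugt genes. Among the Cyp genes, Cyp2d13 and Cyp4f41-ps are annotated as transcribed pseudogenes. Genes seen only by probe sets with several symbols, such as much of the Ugt1a cluster, were not included.

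The study used Affymetrix arrays on mouse mammary epithelial cells treated with TGF-b1, a cytokine under which epithelial cells can take on mesenchymal features. NMuMG, a line from normal mouse mammary gland, gave 12 arrays in 4 groups of 3: TGF-b1 newly made RNA, control newly made RNA, TGF-b1 total RNA and control total RNA. All 12 came from cells given 200 µM 4sU, a uridine analogue, for 2 h. In the TGF-b1 groups 5 ng/ml of the cytokine was in the medium over the same time. Newly made RNA was the 4sU-labelled part of it. NM18 cells, labelled only by that name, gave 9 arrays in 3 groups of 3: FoxQ1 siRNA + TGF-b1, control siRNA + TGF-b1, and control siRNA alone. All 9 came from cells reverse-transfected with 25 nM siRNA for 48 h, scrambled in the controls. In the TGF-b1 groups 5 ng/ml was present for the last 40 h. There was no FoxQ1 siRNA group without TGF-b1. Each experiment is 1 cell line and 1 siRNA label, and p-values measure the spread between the arrays deposited as biological replicates.

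P450 enzymes oxidise lipophilic compounds, steroids and fatty acids, using electrons from NADPH passed on by a reductase. Conjugating enzymes then attach glucuronic acid, sulfate or glutathione to such molecules, which makes them soluble enough to be exported. These genes are best known from liver, but epithelia that face the outside carry their own sets. Their transcription is controlled by ligand-activated receptors such as AHR, by NRF2 (Nfe2l2) and by hepatocyte nuclear factors.

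Values are deposited log2 levels, and a difference of 1 is a 2-fold change. Most of the genes were dim: 16 of 98 lay above the median gene level in NMuMG cells and 11 of 85 in NM18 cells, and the median member stood at the 21.1st and the 15.1st percentile of gene levels. Among the bright ones were Cyp1b1, Gsto1, Gstp1 and Gsta4. Luminal keratins and Cdh1 marked both lines as epithelial, with 5 of 5 luminal markers above the median gene level in NMuMG and 4 of 5 in NM18, and none of the macrophage or adipocyte markers reached it. Hepatocyte markers did in part: Alb, Apoa1, Ttr and Afp lay above the median in NMuMG cells, and Afp alone in NM18 cells. Of 4 basal or myoepithelial and 5 fibroblast markers, Acta2 and Pdgfrb lay above it in NMuMG cells, and none did in NM18 cells. Foxq1 was 7.57, 8.09 and 7.97 in FoxQ1 siRNA + TGF-b1 arrays, against 9.08, 9.04 and 9.33 in control siRNA + TGF-b1 arrays and 7.91, 8.49 and 8.38 in control siRNA arrays, so the siRNA groups did not overlap (change with FoxQ1 siRNA -1.27, adjusted p = 0.000291). Array 1 of control siRNA, like array 1 of FoxQ1 siRNA, carries a comment that mentions TGF-b1, although its title and treatment label do not. The title was followed.

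After 2 h of TGF-b1, 7 of the 98 genes had fallen in newly made RNA and none had risen. They were 3 Ugt2b genes, 2 Cyp2 genes, 1 Sult and 1 Gst gene. The share, 7.14%, lay beside 6.13% of all genes called in either direction (limma, Benjamini-Hochberg adjusted p under 0.05), and the 7 lower genes beside a background of 2.79% lower and 3.35% higher. Of the 98 genes, 5 passed and had fallen at least 2-fold, beside 0.495% of all genes. The groups of 14 of the 98 genes did not overlap, beside 17.5% of all genes. The median change over the 98 was -0.02, against -0.01 over all genes. In bulk RNA, fewer cells of a type and less RNA per cell cannot be told apart.

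Ugt2b34 encodes a glucuronosyltransferase of the family that conjugates steroids and bile acids. Its newly made RNA stood at 7.43, 7.99 and 7.64 in TGF-b1 arrays, against 9.18, 9.70 and 9.50 in control arrays. The groups lay more than 1 log2 unit apart, and the change was -1.77 ± 0.16 (SE, n = 3 each; adjusted p = 3.06e-06), which left 29.3% of the control level. A further probe set of the gene gave -1.81. Its neighbours in the Ugt2b cluster moved in the same direction. Ugt2b36 was 5.66, 5.50 and 5.17 in TGF-b1 newly made RNA, against 6.44, 6.64 and 6.40 in control newly made RNA (change -1.05 ± 0.13, adjusted p = 0.00011). Ugt2b35 was 5.14, 5.28 and 5.26 in TGF-b1 arrays, against 6.05, 6.30 and 5.74 in control arrays (-0.80 ± 0.16, adjusted p = 0.00501). For both genes every TGF-b1 array lay below every control array. These 3 genes lie in a group of 11 genes of the set on chromosome 5, Ugt2 and Sult1 genes side by side, of which the other 8 did not pass the test. Paralogs this close can share probe signal, and the Ugt2b34 and Cyp2c65 probe sets are of the type that matches several transcripts.

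Cyp2c65, of the P450 subfamily that oxidises arachidonic acid and drugs, had newly made levels of 5.49, 5.74 and 5.48 in TGF-b1 arrays, against 6.54, 7.61 and 7.57 in control arrays. The change was -1.67 ± 0.22 (adjusted p = 0.000143), and control array 1 was about 1 unit below the other control arrays but above all TGF-b1 arrays. Cyp2s1, a P450 found mainly outside the liver, in epithelia, was 8.02, 7.98 and 7.77 in TGF-b1 arrays, against 9.04, 8.96 and 9.20 in control arrays (-1.14 ± 0.13, adjusted p = 4.63e-05). The 2 groups were tight and well apart. Sult1c2, a sulfotransferase acting on phenols, was 5.17, 5.57 and 5.37 in TGF-b1 arrays, against 6.16, 6.76 and 6.54 in control arrays (-1.11 ± 0.16, adjusted p = 0.000344), again with no overlap. Gsta4, the glutathione transferase for lipid peroxidation aldehydes such as hydroxynonenal, was 8.94, 9.71 and 9.27 in TGF-b1 arrays, against 9.69, 10.51 and 10.38 in control arrays. Here array 2 of the TGF-b1 group reached the lowest control array, and the change of -0.89 ± 0.23 (adjusted p = 0.032) lost its call when array 2 or 3 of control newly made RNA (adjusted p = 0.169 and 0.11) or array 1 or 3 of TGF-b1 newly made RNA (0.123 and 0.103) was left out. Gsta2 passed when array 1 of control newly made RNA or array 2 of TGF-b1 newly made RNA was left out (adjusted p = 0.0186 and 0.0454). With the replicate number as a block 8.81% of all genes were called, and of the set Gsta2 was added (-0.82, adjusted p = 0.000578, against 0.0677 without the block). With separate blocks for newly made and total RNA (12.8% of all genes called), 13 genes of the set passed, which added Gsta2, Sult1d1, Gstp1, Gstm1, Sult1b1 and Cyp2c68, all lower.

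**Figure D1:**
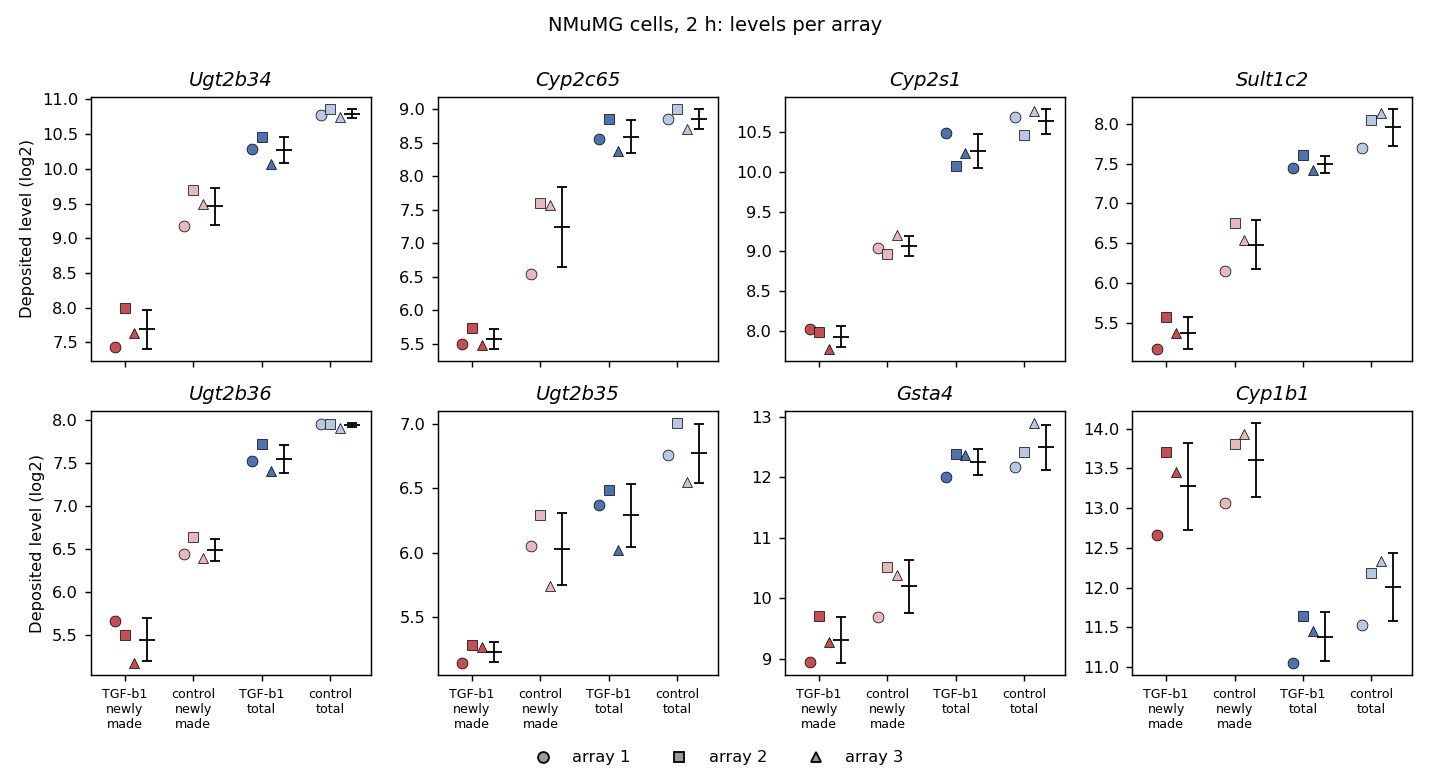
Deposited log2 level on each array (marker shape gives the array number, bars show the mean and SD of 3 arrays) for the 7 genes that fell in newly made RNA and for Cyp1b1, in NMuMG cells after 2 h. TGF-b1 newly made arrays lay below control newly made arrays without overlap for 6 genes, and Gsta4 and Cyp1b1 overlapped.

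The start regions of 4 of these genes, lower at 2 h and again at 40 h below, are shown because their RNA fell both early and late. That of Cyp1b1 is shown because this gene rose most at 40 h, with no call at 2 h. Each is the RefSeq window (GRCm38.p6) of 250 bases before to 50 after the start, written 5′ to 3′ on the gene's strand: Ugt2b34 at chr5:86906888-86907187 (minus), Cyp2c65 at chr19:39060756-39061055 (plus), Cyp2s1 at chr7:25816476-25816775 (minus), Sult1c2 at chr17:53845909-53846208 (minus) and Cyp1b1 at chr17:79715012-79715311 (minus). Capitals mark matches, on either strand, to any of 4 motifs: the forkhead core TGTTTA, the E-box CACCTG that Snail and Zeb proteins bind, the AHR response element core GCGTG, and the antioxidant response element core TGACNNNGC. No 2 matches overlapped.
Ugt2b34: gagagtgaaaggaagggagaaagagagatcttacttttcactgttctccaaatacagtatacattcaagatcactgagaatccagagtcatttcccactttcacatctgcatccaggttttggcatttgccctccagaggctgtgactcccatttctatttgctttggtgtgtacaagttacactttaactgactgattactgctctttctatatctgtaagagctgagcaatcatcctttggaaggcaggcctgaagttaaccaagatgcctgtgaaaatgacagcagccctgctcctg
Cyp2c65: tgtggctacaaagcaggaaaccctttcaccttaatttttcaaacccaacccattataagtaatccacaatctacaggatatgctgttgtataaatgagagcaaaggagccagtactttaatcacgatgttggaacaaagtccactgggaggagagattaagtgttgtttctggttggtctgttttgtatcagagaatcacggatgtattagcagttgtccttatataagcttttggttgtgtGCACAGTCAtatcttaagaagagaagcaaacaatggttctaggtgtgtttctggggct
Cyp2s1: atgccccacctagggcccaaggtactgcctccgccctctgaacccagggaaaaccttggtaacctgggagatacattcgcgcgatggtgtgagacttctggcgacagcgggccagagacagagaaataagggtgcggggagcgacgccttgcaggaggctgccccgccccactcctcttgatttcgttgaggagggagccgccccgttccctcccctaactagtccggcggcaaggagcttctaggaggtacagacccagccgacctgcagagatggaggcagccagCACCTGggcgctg
Sult1c2: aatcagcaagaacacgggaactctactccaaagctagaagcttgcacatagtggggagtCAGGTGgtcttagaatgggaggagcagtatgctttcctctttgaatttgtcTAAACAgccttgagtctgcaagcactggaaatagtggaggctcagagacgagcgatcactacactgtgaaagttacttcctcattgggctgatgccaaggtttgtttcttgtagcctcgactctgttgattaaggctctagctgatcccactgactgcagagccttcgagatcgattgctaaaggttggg
Cyp1b1: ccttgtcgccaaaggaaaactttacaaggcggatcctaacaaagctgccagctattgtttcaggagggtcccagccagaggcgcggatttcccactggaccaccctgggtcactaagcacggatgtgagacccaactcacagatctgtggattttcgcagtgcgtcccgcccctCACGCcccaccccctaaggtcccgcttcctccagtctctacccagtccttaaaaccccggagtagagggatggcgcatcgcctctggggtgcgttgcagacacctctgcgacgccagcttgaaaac
Sult1c2 held a forkhead core at positions 111 to 116 of the window and a CACCTG box at 60 to 65, both on the opposite strand. Cyp2s1 held a CACCTG box at 288 to 293 on the gene's own strand. Cyp2c65 held an antioxidant response element core at 243 to 251 and Cyp1b1 an AHR core at 175 to 179, both on the opposite strand. Ugt2b34 held none of these letters. Such matches are common: of 32851 RefSeq windows of this length, 13.4% held TGTTTA, 20.2% CACCTG, 32.4% GCGTG and 12.4% TGACNNNGC. Windows were at hand for 80 of the 98 genes. Among the 96 windows of the set the shares were 17.7%, 20.8%, 24.0% and 8.33% in the same order. Among the 21 windows of genes that fell at 2 h or 40 h, present for 18 of 20 such genes, they were 23.8%, 14.3%, 47.6% and 14.3%, which are 5, 3, 10 and 3 windows.

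In total RNA none of the 98 genes passed the test after 2 h (limma; 2.48% of all genes did), although 9 had an unadjusted p under 0.05, as did 9.63% of all genes. All 7 genes that fell in newly made RNA had values below 0 in total RNA. Ugt2b34 was 10.28, 10.46 and 10.08 in TGF-b1 total RNA, against 10.78, 10.87 and 10.74 in control total RNA, a change of -0.52 ± 0.16 (adjusted p = 0.13) with no overlap. Ugt2b35 gave -0.48 ± 0.16, Sult1c2 -0.47 ± 0.16, Ugt2b36 -0.39 ± 0.13 and Cyp2s1 -0.37 ± 0.13. Cyp1b1, which oxidises oestradiol and polycyclic hydrocarbons, was 11.05, 11.65 and 11.46 in TGF-b1 total RNA, against 11.52, 12.18 and 12.33 in control total RNA. Its groups overlapped (-0.63 ± 0.28, adjusted p = 0.453). A second probe set of Cyp1b1 gave -0.75 with no overlap, and another, dim one -0.11. With the replicate block, which called 3.85% of all genes, 4 genes of the set passed, all lower: Cyp1b1 (adjusted p = 0.00389), Ugt2b34 (0.0187), Ugt2b35 (0.0304) and Sult1c2 (0.0336). Separate blocks for newly made and total RNA called 5.63% of all genes and added Ugt2b36 (adjusted p = 0.0481). Cyp1a1, the classical AHR target, was dim, and had 4.78, 4.84 and 4.93 in TGF-b1 total RNA, against 5.25, 5.05 and 5.25 in control total RNA (-0.33 ± 0.12, adjusted p = 0.255).

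The difference between the 2 responses was tested as an interaction. None of the 98 genes passed (limma; 0.066% of all genes did; 6 of the set had an unadjusted p under 0.05, as did 2.92% of all genes). Ugt2b34 came nearest: its change in newly made RNA minus that in total RNA was -1.24 ± 0.22 (adjusted p = 0.061). Cyp2c65 followed with -1.41 ± 0.31 (adjusted p = 0.203) and Cyp2s1 with -0.77 ± 0.19 (adjusted p = 0.362). With the replicate block, under which 0.214% of all genes were called, Ugt2b34 and Cyp2c65 passed (adjusted p = 0.00166 and 0.0115), and separate blocks for newly made and total RNA (0.473% of all genes) added Cyp2s1 (adjusted p = 0.033). Without array 1 of control newly made RNA both Ugt2b34 and Cyp2c65 passed, and without array 2 of TGF-b1 newly made RNA Ugt2b34 did (adjusted p = 0.0105, 0.000863 and 0.0288).

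**Figure D2:**
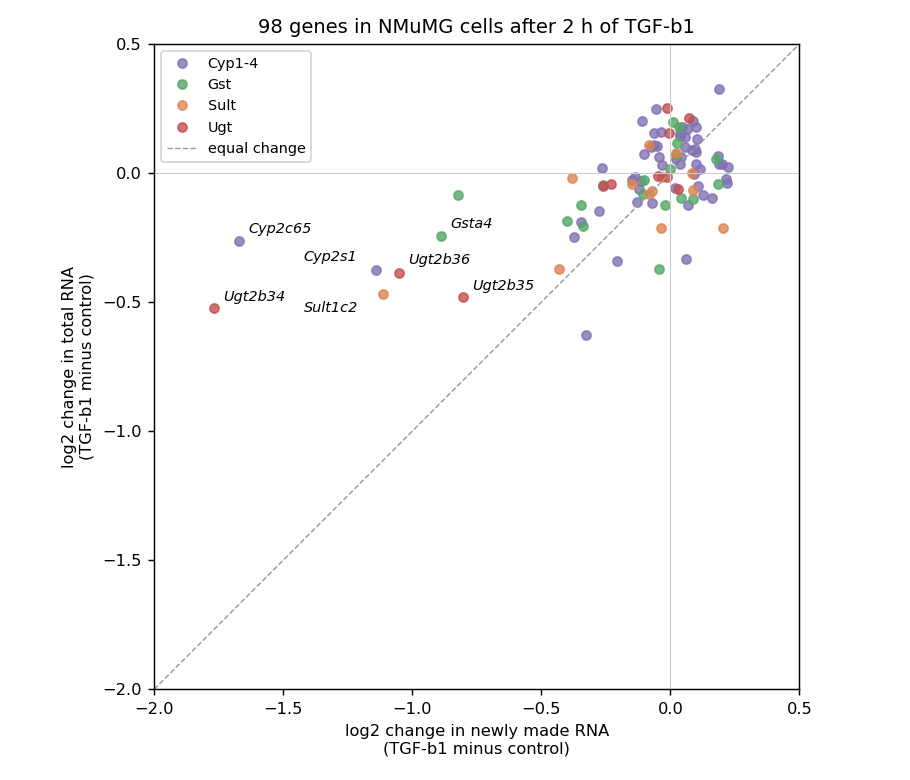
Change after 2 h of TGF-b1 for each of the 98 genes, in newly made RNA (x axis) and in total RNA (y axis), in log2 units, coloured by enzyme family; named genes are the 7 that fell in newly made RNA. The named genes lie left of the line of equal change, between -1.77 and -0.80 on the x axis and between -0.52 and -0.24 on the y axis.

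Control newly made RNA was next set against control total RNA, which relates the label taken up over 2 h to the RNA already there. Of the 98 genes 1 was higher in newly made RNA and 32 were lower (33.7% called, against 44% of all genes, 17.2% higher and 26.8% lower). The higher one was Cyp1b1, at 13.07, 13.81 and 13.93 in control newly made RNA, against 11.52, 12.18 and 12.33 in control total RNA (1.59 ± 0.28, adjusted p = 0.000146). Every newly made array lay above every total array, and a second probe set gave 2.12 and another, dim one 0.09. With only genes above the median gene level tested, 72.4% of all such genes passed, 29.4% higher and 43% lower. Of the 16 such genes in the set, the 15 other than Cyp1b1 were all lower. Lowest was Gstm5, a mu-class glutathione transferase, with 6.52, 6.49 and 6.42 in newly made RNA, against 8.90, 8.70 and 9.16 in total RNA (-2.45 ± 0.13, adjusted p = 9.38e-10). It was followed by Gsta4 (-2.30), Gstp1 (-1.92), Gsta2 (-1.79), Gstm1 (-1.75), Cyp2c65 (-1.61), Cyp2s1 (-1.57) and Gsto2 (-1.53). Of the families, Gst genes were called most often, with 10 of 19 lower and a median of -0.53, against 8 of 35 Cyp2, 5 of 13 Cyp4, 5 of 13 Sult and 4 of 11 Ugt genes. Gst also held more bright genes, with 6 above the median gene level, against 3 Cyp2, 2 Cyp4, 2 Sult and 2 Ugt genes. The remaining lower genes lay between -1.47 and -0.28: Sult1c2, Ugt2b36, Cyp4b1, Ugt2b34, Cyp2j6, Cyp2c70, Gsto1, Cyp2c68, Cyp4f16, Gsta3, Sult1b1, Gstm2, Cyp4a12a, Sult2b1, Sult1d1, Ugt2b35, Ugt2b5, Gstt1, Cyp2j9, Cyp2j11, Sult1a1, Cyp4v3, Cyp2c39 and Cyp4f13. Of these Cyp2j11, Sult1a1, Cyp4v3, Cyp2c39 and Cyp4f13 each lost the call when any of 3 to 5 single arrays was left out. This contrast depends on how newly made and total arrays were scaled to each other, which the sources used here do not give. Centring each array on its median moved the median of all genes by over 0.1, to 0.03, against -0.08 as deposited, and left 4 genes of the set higher and 27 lower. Over all genes it left 21% higher and 22.2% lower.

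In NM18 cells 40 h of TGF-b1 lowered 18 of the 85 genes and raised 2. Together these 20 made 23.5%, beside 30.7% of all genes called, of which 13.2% were higher and 17.5% lower. Without array 1 of control siRNA, the one with the comment on TGF-b1, 19 passed, 2 higher and 17 lower. Of the 85 genes, 10 passed and fell at least 2-fold, beside 2.17% of all genes. The 5 genes measured here that had fallen in newly made NMuMG RNA at 2 h, Ugt2b34, Gsta4, Cyp2s1, Sult1c2 and Cyp2c65, were among the 18 lowered genes. Ugt2b35 and Ugt2b36 were not measured in NM18 cells. Over the whole set, the groups of 27 of 85 genes (31.8%) did not overlap, beside 41.8% of all genes. The tables were scaled separately, so levels are compared only within a table.

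Among glucuronosyltransferases, Ugt2b34 fell most. It stood at 6.21, 7.40 and 6.33 in control siRNA + TGF-b1 arrays, against 10.12, 10.21 and 10.70 in control siRNA arrays, a change of -3.70 ± 0.59 (adjusted p = 0.000594) that left 7.71% of the level. Array 2 of the TGF-b1 group was the highest of its group by about 1 unit, yet far below the controls, and a further probe set gave -3.61. Ugt2b5 was 5.20, 5.32 and 5.29 with TGF-b1, against 6.10, 6.05 and 6.24 without (-0.86 ± 0.12, adjusted p = 0.00022). Ugt2b38 was dim and changed little (-0.20 ± 0.07, adjusted p = 0.0466), and its call was lost without array 1 or 2 of control siRNA (adjusted p = 0.112 and 0.16) or array 1 or 3 of control siRNA + TGF-b1 (0.158 and 0.115). On chromosome 5 the cluster of Ugt2 and Sult1 genes had 9 measured members, of which 5 passed, all lower.

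Of the glutathione transferases 6 of 17 fell and none rose. Gsta4 was 8.77, 9.75 and 8.27 in control siRNA + TGF-b1 arrays, against 11.92, 11.40 and 12.27 in control siRNA arrays (-2.93 ± 0.52, adjusted p = 0.00135). Its neighbour Gsta2, also of the alpha class, was 6.96, 7.53 and 6.37 with TGF-b1, against 9.26, 8.76 and 9.48 without (-2.21 ± 0.51, adjusted p = 0.00613). Gsta3, an alpha enzyme with steroid isomerase activity, was 7.85, 8.68 and 7.56 with TGF-b1, against 9.67, 9.77 and 10.21 without (-1.85 ± 0.35, adjusted p = 0.00179). A further probe set of Gsta3 gave -1.16. In all 3 genes array 2 of the TGF-b1 group was the highest of its group but still below every control. The mu-class genes fell less: Gstm1 was 7.06, 6.95 and 6.96 with TGF-b1, against 7.89, 7.67 and 8.41 without (-1.0 ± 0.16, adjusted p = 0.000533), and Gstm5 changed by -0.64 ± 0.12 (adjusted p = 0.00223). Gstm1 had 3 other probe sets, with changes of -0.92, -0.36 and -0.16. Gstp1, the abundant pi-class enzyme, was 12.75, 13.06 and 12.92 with TGF-b1, against 13.48, 13.37 and 13.60 without (-0.57 ± 0.12, adjusted p = 0.0032). Gstt1, Gstk1 and Gstm2 had values of 0.01, -0.04 and -0.21 that did not pass, and Gsto1, a dehydroascorbate reductase and one of the brightest genes, had 0.12.

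Sulfotransferases fell in 4 of 11 cases. Sult1c2 was 6.21, 6.24 and 6.12 in control siRNA + TGF-b1 arrays, against 7.74, 7.64 and 8.44 in control siRNA arrays (-1.75 ± 0.20, adjusted p = 7.53e-05). Sult2b1, which sulfates cholesterol in surface epithelia, was 8.01, 8.48 and 8.04 with TGF-b1, against 9.38, 9.29 and 9.42 without (-1.19 ± 0.11, adjusted p = 1.88e-05). Neither pair of groups overlapped. Sult1d1, a mouse enzyme for catecholamines, changed by -0.75 ± 0.16 (adjusted p = 0.00364) and Sult1b1, which acts on phenols and thyroid hormones, by -0.43 ± 0.08 (adjusted p = 0.00186), while Sult1a1 had 0.10 and did not pass. A further probe set of Sult1d1 gave -0.29.

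Among P450 genes, 5 fell and 2 rose, of 3, 31, 4 and 10 measured in families 1 to 4. Of all genes, 17.5% fell and 13.2% rose. Cyp2s1 gave the smallest p of the set: 7.62, 7.69 and 7.48 in control siRNA + TGF-b1 arrays, against 10.55, 10.14 and 10.76 in control siRNA arrays (-2.89 ± 0.13, adjusted p = 6.33e-07), which left 13.5% of the level. Cyp2c65 was 6.04, 6.16 and 6.05 with TGF-b1, against 7.61, 7.20 and 7.91 without (-1.49 ± 0.18, adjusted p = 9.61e-05). In the same Cyp2c cluster on chromosome 19, Cyp2c68 was 6.30, 6.91 and 6.26 with TGF-b1, against 7.36, 7.77 and 7.65 without (-1.10 ± 0.27, adjusted p = 0.00872), and the other 8 members did not pass. Of the fatty acid hydroxylases of family 4, Cyp4a12a changed by -0.58 ± 0.07 (adjusted p = 8.08e-05) and Cyp4b1 by -0.32 ± 0.08 (adjusted p = 0.00731), whereas Cyp4f13 rose by 0.29 ± 0.08 (adjusted p = 0.0114). None of the set's 7 Cyp2d and 4 Cyp3a genes measured here passed, a count without Cyp3a13, which the rule left out. Cyp1b1 stood against this direction. It was 11.18, 11.62 and 10.33 with TGF-b1, against 9.44, 9.75 and 8.85 without (1.70 ± 0.38, adjusted p = 0.00515), a level of 324% of the control. Array 3 was the lowest of both groups, which still did not overlap, and a second probe set gave 1.34 and another, dim one 0.18. At 2 h its newly made RNA was 12.66, 13.70 and 13.46 with TGF-b1, against 13.07, 13.81 and 13.93 in controls, with overlap (-0.33 ± 0.28). There the second probe set gave -0.52, also with overlap, and the dim one 0.09. The replicate block called 38.6% of all genes and added Cyp4f16 (0.16, adjusted p = 0.0444) and Ugt3a2 (-0.16, adjusted p = 0.0341) to the set's 20.

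**Figure D3:**
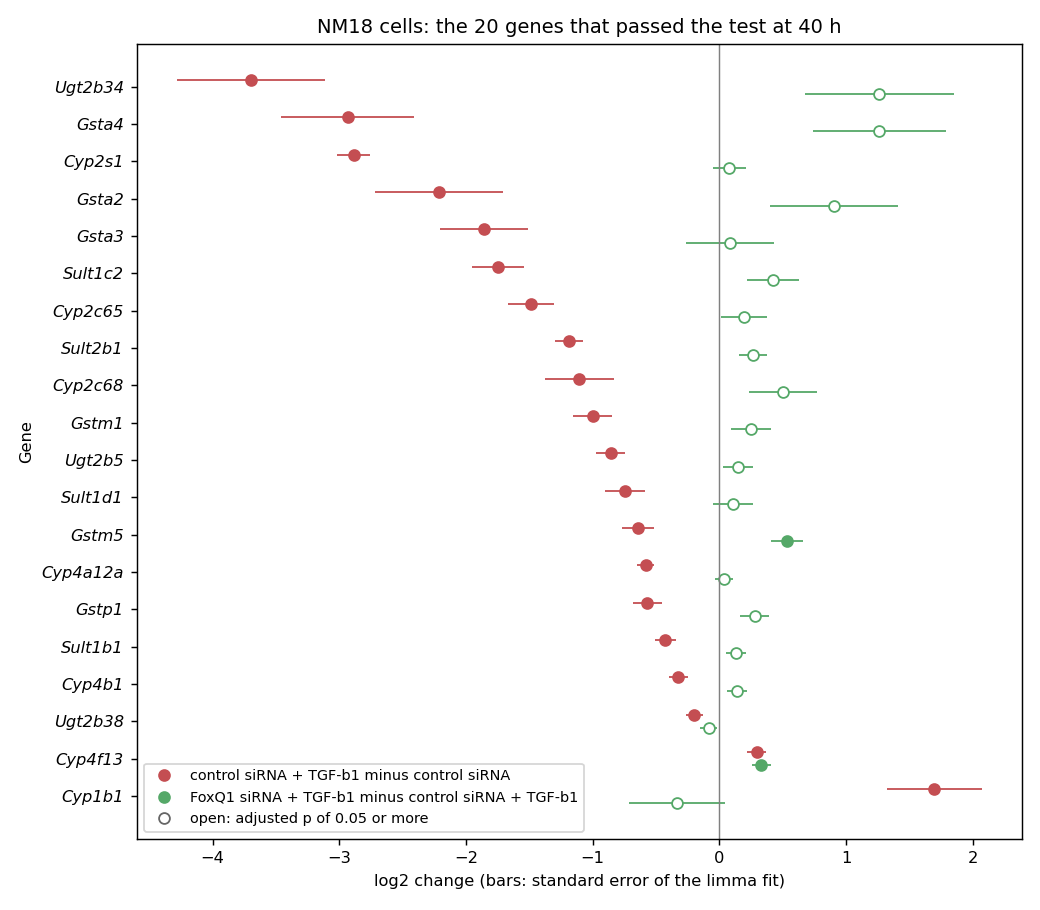
Change in log2 units for the 20 genes that passed the test after 40 h of TGF-b1 in NM18 cells, for TGF-b1 (control siRNA + TGF-b1 minus control siRNA) and for FoxQ1 siRNA (FoxQ1 siRNA + TGF-b1 minus control siRNA + TGF-b1); bars are standard errors of the limma fit and filled points passed. For TGF-b1, 18 genes lie below 0 and Cyp4f13 and Cyp1b1 above, and for FoxQ1 siRNA only Gstm5 and Cyp4f13 are filled.

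Markers of epithelial and other cell states moved in the same cells, and their part in these results was not tested. Krt19, a luminal keratin, changed by -1.09 in newly made RNA at 2 h and by -3.11 at 40 h, and Cdh1 by -1.04 at 40 h; these were 1 and 2 of the 5 luminal markers to fall, and none rose. The array means of the luminal list ran from 11.20 to 11.31 in control siRNA + TGF-b1, against 12.05 to 12.17 in control siRNA. Of the 6 hepatocyte markers Afp alone fell, by 0.93 in newly made RNA at 2 h and by 1.09 at 40 h. The array means of the hepatocyte list ran from 7.16 to 7.33 with TGF-b1, against 7.45 to 7.56 without. At 2 h they ran from 6.22 to 6.60 in TGF-b1 newly made RNA, against 6.53 to 7.03 in control newly made RNA. Of 4 basal markers none passed at 2 h in newly made RNA and 1 rose at 40 h. Of 4 macrophage or leukocyte markers Csf1r rose at 40 h (0.36, adjusted p = 0.0134) and none passed at 2 h. Of 5 fibroblast markers only Col1a1 passed, and rose by 0.79 at 2 h in newly made RNA and by 0.91 at 40 h.

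FoxQ1 siRNA under TGF-b1 raised 4 of the 85 genes and lowered 1 (5.88%, beside 19.6% of all genes called, 11.3% higher and 8.28% lower). Luminal markers moved in the same comparison, with 2 of 5 higher (Cdh1 by 1.05) and array means of 11.60 to 11.89 in FoxQ1 siRNA + TGF-b1, against 11.20 to 11.31 in control siRNA + TGF-b1. Of the 4 macrophage or leukocyte markers, all below the median gene level, Ptprc (0.35, adjusted p = 0.00735) and Cd68 (0.50, adjusted p = 0.00829) were higher, and array means of this list ran from 6.62 to 6.81 with FoxQ1 siRNA, against 6.53 to 6.59 with control siRNA. Of 4 basal markers Acta2 was higher (0.93, adjusted p = 0.00246). No hepatocyte, fibroblast or adipocyte marker passed. The part of these markers in the result was not tested. Cyp4f16, a fatty acid hydroxylase, was 9.06, 8.93 and 9.07 in FoxQ1 siRNA + TGF-b1 arrays, against 8.45, 8.53 and 8.54 in control siRNA + TGF-b1 arrays (0.52 ± 0.07, adjusted p = 0.000291). Cyp4f13, in the same cluster on chromosome 17, was 7.78, 7.79 and 7.94 with FoxQ1 siRNA, against 7.44, 7.52 and 7.56 with control siRNA (0.33 ± 0.08, adjusted p = 0.00973). Both pairs of groups were apart, but a further probe set of Cyp4f16 gave 0.15 with overlap. Gsto1 was 13.33, 13.46 and 13.47 with FoxQ1 siRNA, against 13.78, 13.69 and 13.76 with control siRNA (-0.32 ± 0.06, adjusted p = 0.00409), and its further probe set gave -0.30. Gstm5 was 9.34, 9.63 and 9.39 with FoxQ1 siRNA, against 8.83, 8.99 and 8.95 with control siRNA (0.53 ± 0.12, adjusted p = 0.0109). It was the 1 gene of the 18 lowered by TGF-b1 to be raised by FoxQ1 siRNA, and its control siRNA arrays without TGF-b1 stood at 9.27, 9.62 and 9.80. Gstm6 was dim (0.21 ± 0.06, adjusted p = 0.0387) and lost its call whichever of the 6 arrays was left out. Without array 1 of control siRNA + TGF-b1, Gstm5 was lost too (adjusted p = 0.0519) and 3 genes passed. Gstm2 (0.51, adjusted p = 0.0195) and Sult1a1 (-0.31, adjusted p = 0.00939) passed without array 2 of FoxQ1 siRNA, and Sult2b1 (0.42, adjusted p = 0.0038) without array 2 of control siRNA + TGF-b1. With the replicate block (28.4% of all genes called) 9 genes passed, 7 higher and 2 lower, which added Gstm2 (0.38, adjusted p = 0.00583), Cyp2j6 (0.24, adjusted p = 0.0168), Cyp2c68 (0.50, adjusted p = 0.0331) and, lower, Cyp3a44 (-0.21, adjusted p = 0.0448).

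Of the 18 genes lowered by TGF-b1, 17 had FoxQ1 siRNA values above 0, but both comparisons use the same control siRNA + TGF-b1 arrays, so the signs are not independent. The widest values came with the widest spread. Ugt2b34 was 7.15, 9.65 and 6.93 in FoxQ1 siRNA + TGF-b1 arrays, against 6.21, 7.40 and 6.33 in control siRNA + TGF-b1 arrays (1.26 ± 0.59, adjusted p = 0.175). Gsta4 was 9.74, 11.58 and 9.26 with FoxQ1 siRNA, against 8.77, 9.75 and 8.27 with control siRNA (1.26 ± 0.52, adjusted p = 0.129). Gsta2 was 7.59, 9.24 and 6.74 with FoxQ1 siRNA, against 6.96, 7.53 and 6.37 with control siRNA (0.90 ± 0.51, adjusted p = 0.272). Array 2 was far above the others in the FoxQ1 siRNA group for all 3, and the groups overlapped. Over the 18 genes, array 2 was the highest of its group for 15 in FoxQ1 siRNA + TGF-b1 and for 16 in control siRNA + TGF-b1, whereas in control siRNA array 3 was the highest for 15. Within same-numbered arrays, FoxQ1 siRNA minus control siRNA was 0.94, 2.24 and 0.60 for Ugt2b34, 0.97, 1.82 and 0.99 for Gsta4, and 0.63, 1.71 and 0.37 for Gsta2, so all 3 pairs were above 0 for each. With the replicate block these genes still did not pass (adjusted p = 0.0658, 0.0709 and 0.173). Without array 2 of FoxQ1 siRNA, which leaves its high partner in the control group, the values were 0.39 for Ugt2b34, 0.57 for Gsta4 and 0.21 for Gsta2, and Gsta3 stood at -0.33, against 0.09 with it. Without array 3 of FoxQ1 siRNA, Gsta4 (1.73, adjusted p = 0.049) and Gsta2 (1.46, adjusted p = 0.0492) passed. Cyp2s1, which fell tightly, had 7.64, 7.78 and 7.61 with FoxQ1 siRNA, against 7.62, 7.69 and 7.48 with control siRNA, a difference of 0.08 with a 95% interval of -0.21 to 0.37. Cyp2c65 had a difference of 0.20 (-0.20 to 0.59) and Cyp1b1 of -0.34 (-1.17 to 0.49), neither of which passed. A second probe set of Cyp1b1 gave 0.06 and another, dim one -0.05. Cyp1a1 was 6.05, 7.30 and 5.81 with FoxQ1 siRNA, against 5.80, 5.96 and 5.75 with control siRNA, with array 2 again apart.

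**Figure D4:**
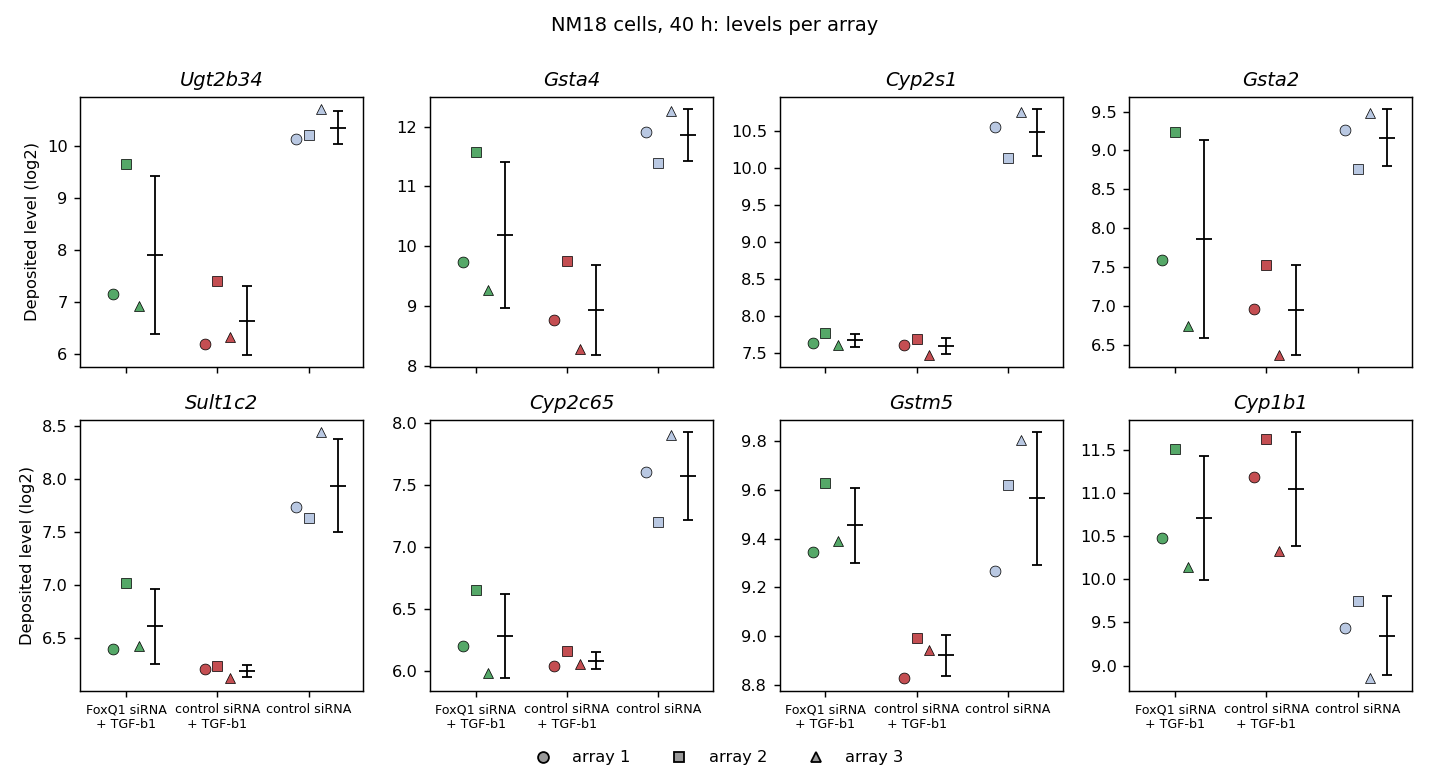
Deposited log2 level on each array (marker shape gives the array number, bars show the mean and SD of 3 arrays) for 8 genes in NM18 cells. Array 2 of FoxQ1 siRNA + TGF-b1 lies far above arrays 1 and 3 for Ugt2b34, Gsta4 and Gsta2, whereas Cyp2s1 lies between 7.48 and 7.78 on all 6 TGF-b1 arrays.

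Cells with FoxQ1 siRNA + TGF-b1 were finally set against cells with control siRNA and no TGF-b1. Of the 85 genes 4 were higher and 14 lower (21.2%, beside 37.9% of all genes called, 19.3% higher and 18.6% lower). Of the 18 genes lowered by TGF-b1 under control siRNA, 13 were also lower here, in a comparison that shares the control siRNA arrays. Ugt2b34 stood at -2.43 ± 0.59 (adjusted p = 0.00614), and at -3.30 without array 2 of FoxQ1 siRNA. Cyp2s1 stood at -2.81 ± 0.13, Gsta3 at -1.77 ± 0.35, Sult1c2 at -1.32 ± 0.20 and Cyp2c65 at -1.29 ± 0.18, each with groups apart. A further probe set of Gsta3 gave -0.80. Gsta4 (-1.67 ± 0.52, adjusted p = 0.0259) overlapped and lost its call without array 1 or 3 of either group (adjusted p = 0.0681, 0.0907, 0.0986 and 0.109). The remaining lower genes were Sult2b1, Gstm1, Ugt2b5, Sult1d1, Cyp4a12a, Sult1b1, Ugt2b38 and Gsto1, between -0.92 and -0.20. Sult1b1 was lost without array 1 of FoxQ1 siRNA (adjusted p = 0.0507), and Gsto1 without that array or array 1 or 3 of control siRNA (0.108, 0.0666 and 0.0566). The 5 of the 18 that did not pass were Gsta2, Cyp2c68, Gstm5, Gstp1 and Cyp4b1; of these Gsta2, Cyp2c68 and Gstp1 passed as lower without array 2 of FoxQ1 siRNA (adjusted p = 0.000658, 0.00154 and 0.00924), as did Gstp3 and Sult1a1 (0.015 and 0.0318). Cyp4b1 passed as lower without array 1 of FoxQ1 siRNA (adjusted p = 0.0346), and Cyp1a1 as higher without its array 3 (0.0318). The higher genes were Cyp1b1 (1.36 ± 0.38, adjusted p = 0.0135, lost at 0.0605 without array 3 of control siRNA), Cyp4f16 (0.68 ± 0.07), Cyp4f13 (0.62 ± 0.08) and Cyp2j6 (0.34 ± 0.09), a P450 of the arachidonic acid epoxygenase subfamily. Further probe sets gave 0.35 for Cyp4f16, and 1.40 and, on a dim one, 0.13 for Cyp1b1. The replicate block called 44.7% of all genes and 23 of the set, adding Gsta2 (-1.31), Cyp2c68 (-0.60), Gstp1 (-0.29) and Gstp3 (-0.23) as lower. It added the pseudogene Cyp2d13 (0.20) as higher.

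The other parts of the pathway were followed with lists of genes outside the set, and some genes stand in more than 1 list. These lists were chosen with earlier results of these data known, so their counts are descriptive only. The counts stand beside all-gene shares of 3.35% higher and 2.79% lower in newly made RNA, 13.2% and 17.5% at 40 h, and 11.3% and 8.28% for FoxQ1 siRNA. Among 22 xenobiotic receptors and regulators, newly made RNA at 2 h held 5 that rose and 3 that fell, and at 40 h there were 6 and 5. Foxa2, a forkhead factor of liver and gut epithelium, changed by -1.67 in newly made RNA, -1.69 in total RNA and -1.34 at 40 h. Bach1, a repressor of antioxidant response genes, rose by 0.63 in newly made RNA, by 0.78 in total RNA and by 0.47 at 40 h, and changed by -0.81 with FoxQ1 siRNA. Besides Bach1, the genes that rose in newly made RNA were Maff, Mafk, Rxra and Hnf4a (0.41 to 0.66). Hnf4a (-1.44) and Cebpa (-1.24), regulators of hepatic enzyme genes, fell at 40 h. Ahr changed by -0.85 in total RNA at 2 h. Nfe2l2, which encodes NRF2, changed by -1.0 in newly made RNA and by -0.97 at 40 h. Of 20 NRF2 target genes at 2 h newly made RNA had 2 higher and 3 lower, and at 40 h there were 1 higher and 11 lower, with medians of -0.10 and -0.41 against -0.01 and 0.00 over all genes. At 40 h the glutathione reductase Gsr changed by -1.23, Me1, a source of NADPH, by -1.0, and Ugdh, which makes the glucuronic acid donor, by -0.97. Of 11 AHR targets 2 fell at 2 h in newly made RNA with none higher, and at 40 h there were 3 lower and 1 higher.

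For the supply of the enzymes, of 22 P450 electron partners and cofactor genes 2 passed as higher and 4 as lower after 2 h in newly made RNA, and of 21 measured in NM18 cells 4 rose and 11 fell at 40 h. Gclc and Gss, which make glutathione, changed by -0.89 and -0.74 in newly made RNA, and Slc26a2, a sulfate transporter, by -1.49. Of 19 P450 genes outside families 1 to 4 none passed in newly made RNA (limma; 1 had an unadjusted p under 0.05). Of 16 measured at 40 h, Cyp21a1 (0.26) rose and Cyp51 (-1.23) and Cyp39a1 (-0.77), enzymes of sterol synthesis and oxysterol breakdown, fell. Among 41 other phase I and II enzymes newly made RNA had 1 higher and 5 lower, among the lower the aldehyde and alcohol dehydrogenases Aldh1a1 (-1.45) and Adh7 (-1.52) and the microsomal transferase Mgst2 (-1.06). At 40 h 2 of 40 rose and 14 fell. FoxQ1 siRNA raised 10 of these 40 and lowered 1, with Ephx1, the microsomal epoxide hydrolase, at 2.41, Akr1b8 at 0.85 and Mgst2 at 0.77. Of 19 transporters 2 fell and none rose in newly made RNA, and the conjugate exporter Abcc3 changed by -0.75 there and by -1.33 at 40 h.

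Of the 98 genes 33 (33.7%) passed in at least 1 of the 4 comparisons in NMuMG cells, beside 46.2% of all genes, and of the 85 genes 24 (28.2%) in at least 1 of the 3 in NM18 cells, beside 46.5%. Over all 7 comparisons 63 of the 98 genes had no call. Those without a call include the set's Cyp2a, Cyp2b, Cyp2d and Cyp3a genes, of families with the liver's main drug oxidases, and Cyp1a1, Cyp1a2, Cyp2e1 and Gstk1. Cyp3a13, left out by the rule, did pass, as lower in newly made RNA at 2 h and at 40 h. A missing call does not show that a gene did not change.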

How the data were processed

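Per the labels' protocols, 4sU-labelled RNA was separated from extracted RNA by mercury-based chromatography to give the newly made samples; NMuMG RNA was amplified in a 2-cycle synthesis and NM18 RNA in a 3′ in vitro transcription before hybridisation. The deposited values are log2 expression levels per probe set made by the authors; the log2 scale was read from the range of values (2.34 to 14.8 in NMuMG, 4.57 to 14.6 in NM18). Background correction, summarisation and normalization are not given in the sources used here; the submitters' processing notes name affy 1.18.2 but give it no role. Scanner files were not used here. All 21 columns were used. Array medians ran from 5.69 to 6.00 in NMuMG and from 7.36 to 7.42 in NM18; 3 arrays per group limit the precision.

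Gene names came from GEO's platform annotation; 34945 of 45101 NMuMG and 20380 of 22690 NM18 probe sets had 1 symbol. Multi-symbol probe sets (932 and 691) and those with none (9160 and 1555) or controls (64 each) were left out. limma 3.58.1 in R 4.3.3 was fitted once per table over all its groups (lmFit, eBayes, two-sided), with Benjamini-Hochberg adjustment over all genes of the table and calls at 0.05; no set test was made. On simulated arrays 93% of 2-fold and 99% of 4-fold changes were recovered for the 2 h newly made comparison of 18193 genes, and 99% and 100% for the 40 h comparison of 12393 genes, with 5.42% and 5.69% false calls. The simulated noise was independent between arrays, unlike the correlated deviations described below, and 100 genes were changed at each size. These shares hold for that setting only, not for single genes with a wide spread.

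Equal replicate numbers were checked for pairing by the correlation of same-numbered arrays' deviations from their group means. These ran from 0.122 to 0.732 in the 5 comparisons of treatments, and those of arrays with unlike numbers from -0.579 to 0.347. Between control newly made and control total RNA, same-numbered arrays had 0.022 to 0.306. Between FoxQ1 siRNA + TGF-b1 and control siRNA they had 0.16 to 0.306, so these ranges overlapped. Numbers were taken to pair arrays only in the comparisons of treatments, a choice that the correlations alone do not settle. The main calls come from the fit without the block, and blocked values stand beside results they change. Separate blocks for newly made and total RNA, array weights, 2 rescalings, a filter on dim genes, averaged probe sets, fits on the compared arrays alone and leaving out each array were tried as alternatives.

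The genes and gene lists were chosen with earlier results of these data known. Named genes were those called in any comparison, the 3 with the smallest p in each, fixed well-known enzymes, Foxq1, Cyp3a13 and up to 3 per gene list; genes named for passing without 1 array or under a block were added after their values were seen. Cyp3a13, outside the set, changed by -2.50 in newly made RNA and by -0.96 at 40 h, and passed the test in both.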

Additional observations from a re-analysis of the deposited data

How the results depend on the processing

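Across the alternatives no called gene of the set changed sign. Calls kept in every alternative that tested the gene were 6 of the 7 in newly made RNA at 2 h. Between control newly made and control total RNA they were 28 of 33. In NM18 cells they were 19 of 20 at 40 h, 3 of 5 for FoxQ1 siRNA and 14 of 18 against untreated cells. The cause of the other calls' loss was not tested. Genes below the median level were not tested under the filter on dim genes. Array weights called 2544 of 18193 genes in newly made RNA at 2 h, 1043 in total RNA and 83 for the difference between them. Without weights 1116, 452 and 12 genes passed. With weights the counts of the set moved to 17 (1 higher, 16 lower), 3 and 4 in the same order. The replicate block gave 4 in total RNA, 2 for that difference and 9 for FoxQ1 siRNA, and within each kind of RNA it gave 13, 5 and 3 for newly made RNA, total RNA and the difference. Apart from the contrast of control newly made and control total RNA, the block changed no other call than those printed in the report. In that contrast, where the numbers were not taken to pair arrays, the block gave 37 genes. Over all 18193 genes it called 8571 there. Total RNA arrays fitted alone gave 1 gene, beside 586 of all genes. Median centring and quantile normalization each gave 1 for the difference, beside 14 and 21 of all genes. With only genes above the median level, so with fewer genes of the set tested, 16 of 16 passed between control newly made and control total RNA (72.4% of all such genes), 9 of 11 at 40 h (50.1%), 3 of 11 for FoxQ1 siRNA (34%), 8 of 11 against untreated cells (61.6%) and 6 of 16 in newly made RNA at 2 h (10.6%). Leaving out each array in turn gave 6 to 9 genes in newly made RNA at 2 h, 0 to 0 in total RNA, 0 to 2 for the difference, 29 to 35 between control newly made and control total RNA, 19 to 20 at 40 h, 3 to 6 for FoxQ1 siRNA and 15 to 23 against untreated cells. In the same order, these fits called 758 to 1288, 308 to 358, 4 to 20 and 7424 to 8048 of all NMuMG genes. Of all NM18 genes they called 3103 to 3741, 1652 to 2143 and 4078 to 4572. Below the median gene level lay 82 of 98 genes in NMuMG and 74 of 85 in NM18 cells; whether dim signal hid changes was not tested.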
